A study of Mus musculus with 9 samples.

Results

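The α and β globin loci were examined for CTCF and cohesin binding in B- and T-lymphocyte precursors, cells that are not known to make haemoglobin. The loci were delimited by 7 globin genes of the mm9 annotation: Hbb-b2, Hbb-b1, Hbb-bh1 and Hbb-y on chromosome 7, and Hba-x, Hba-a1 and Hba-a2 on chromosome 11. The β cluster, from the lowest to the highest end of its genes, spanned chr7:110961038-111001754 (40.7 kb), and the α cluster spanned chr11:32176400-32197301 (20.9 kb). Every deposited peak with at least 1 bp within a cluster or within 100 kb on either side was taken. This gave 88 of the 190262 peaks in the 5 lists, 25 in the β window and 63 in the α window. The rule uses gene positions and no peak values.

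The 5 lists came from chromatin immunoprecipitation with sequencing of C57BL/6 mouse cells that all lacked the RAG recombinase, so that antigen receptor genes were not rearranged and development stopped at a defined stage. CTCF was mapped in RAG1-/- pro-B cells after 7 days of culture with IL7, and in RAG-/-µ+ pre-B cells, whose hosts carried a rearranged IgM transgene. Rad21, a subunit of cohesin, was mapped in the same kind of pre-B cells, in CD4-CD8- (DN) thymocytes of Rag1-/- mice, and in CD4+CD8+ (DP) thymocytes of Rag1-/- mice with a TCRb transgene. Marrow donors were 6 to 14 weeks old and thymus donors 4 to 8 weeks old. Each condition was 1 library with an input control, without replicates, so no difference between conditions could be tested and no p-value is given. The lists held 42250 peaks for pre-B CTCF, 71080 for IL7 pro-B CTCF, 30488 for pre-B Rad21, 9701 for DN Rad21 and 36743 for DP Rad21. Read depth is not part of a peak list, and a missing peak says only that none passed the caller's threshold in that library. The lists measure no RNA, so the cell labels and globin silence could not be checked against marker genes.

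Haemoglobin is built from α-type and β-type chains, and each family lies in a cluster whose genes are used in turn during development. Hba-x and Hbb-y with Hbb-bh1 are embryonic genes, Hba-a1 and Hba-a2 are the adult α genes, and Hbb-b1 and Hbb-b2 are the adult β genes. In red cell precursors the β genes are driven by a distant locus control region, which lies on the Hbb-y side among olfactory receptor genes. The α genes are driven by enhancers that lie mostly within introns of Nprl3, a housekeeping gene. CTCF is a zinc finger protein that binds a long, directional motif and can halt cohesin, the ring complex that extrudes chromatin loops. Sites that face each other are the ones most often found at the ends of such loops. Both proteins are known to border the globin clusters in red cell precursors.

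Peaks that overlapped by 1 bp or more across the lists were merged, which gave 9 sites in the β window and 21 in the α window. The sequences of 10 sites, with a stretch of 1 further site, are shown. They lie within or near the clusters or held the highest-ranked CTCF peaks, and the Rhbdf1 and Olfr631 sequences stand for sites farther out that had both CTCF and Rad21. Each was read from the mm9 assembly along the strand of the match, 5′ to 3′, and the capitals mark the 12 bases aligned to the HOMER de novo CTCF consensus of the study. Plus-strand matches were read as facing lower coordinates and minus-strand matches as facing higher ones. The first 4 lie in the β window, in order of position, at chr7:110941594-110941633 (minus strand), chr7:110955574-110955613 (plus), chr7:111023144-111023183 (plus) and chr7:111061680-111061719 (plus), all outside annotated genes.
Olfr67 side of the β cluster: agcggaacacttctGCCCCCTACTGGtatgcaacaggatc
Hbb-b2 border: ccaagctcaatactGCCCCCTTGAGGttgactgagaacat
Second site beyond Hbb-y: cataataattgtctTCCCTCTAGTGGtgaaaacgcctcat
Olfr631 side of the β cluster: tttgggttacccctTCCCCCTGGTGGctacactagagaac

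The α window sequences lie at chr11:32117018-32117057 (minus strand, exon of Rhbdf1), chr11:32138643-32138682 (plus, intron of Nprl3), chr11:32147250-32147289 (minus, intron of Nprl3), chr11:32186920-32186959 (plus, just before Hbq1b), chr11:32221381-32221420 (plus, outside genes) and chr11:32242928-32242967 (minus, outside genes, towards Sh3pxd2b). The Hbq1b stretch occurs again, base for base, before Hbq1a at chr11:32200025-32200064.
Rhbdf1 exon: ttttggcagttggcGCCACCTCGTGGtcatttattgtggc
Nprl3 site called in all 5 libraries: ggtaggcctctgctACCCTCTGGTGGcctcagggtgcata
Nprl3 intron site nearer the α genes: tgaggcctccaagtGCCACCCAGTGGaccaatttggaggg
Hbq1b and Hbq1a starts: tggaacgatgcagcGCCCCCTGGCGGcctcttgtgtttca
Beyond Hbq1a: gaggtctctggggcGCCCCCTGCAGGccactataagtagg
Sh3pxd2b side, highest-ranked CTCF peaks: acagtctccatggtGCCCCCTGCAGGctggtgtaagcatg

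No library had a peak inside the β cluster. Both CTCF lists and pre-B Rad21 had the same bordering sites, namely a site 5.05 kb below Hbb-b2 and a site 19.7 kb above Hbb-y. The 65.4 kb between them, which hold every β globin gene, were free of peaks in all 5 lists. Over chromosomes 1 to 19 and X, 9.32% of the intervals between neighbouring merged sites were at least as long. The peak-free stretch was 161 kb in DN thymocytes, where 33.1% of intervals were as long, and 136 kb in DP thymocytes, where 8.28% were.

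The peak count in the β window was 7 for pre-B CTCF, 8 for IL7 pro-B CTCF, 6 for pre-B Rad21, 1 for DN Rad21 and 3 for DP Rad21. Per megabase the window held 29.1 pre-B CTCF peaks against 16 over chromosomes 1 to 19 and X, and 24.9 pre-B Rad21 peaks against 11.6. For the other lists the window and the genome stood at 33.2 and 26.9 (IL7 pro-B CTCF), 4.15 and 3.68 (DN Rad21) and 12.5 and 13.9 (DP Rad21). The DN count rested on 1 peak, and the DP count on 3. Of the 22 annotated genes in this window 18 were protein-coding, and 13 of those were olfactory receptor genes.

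**Figure D1:**
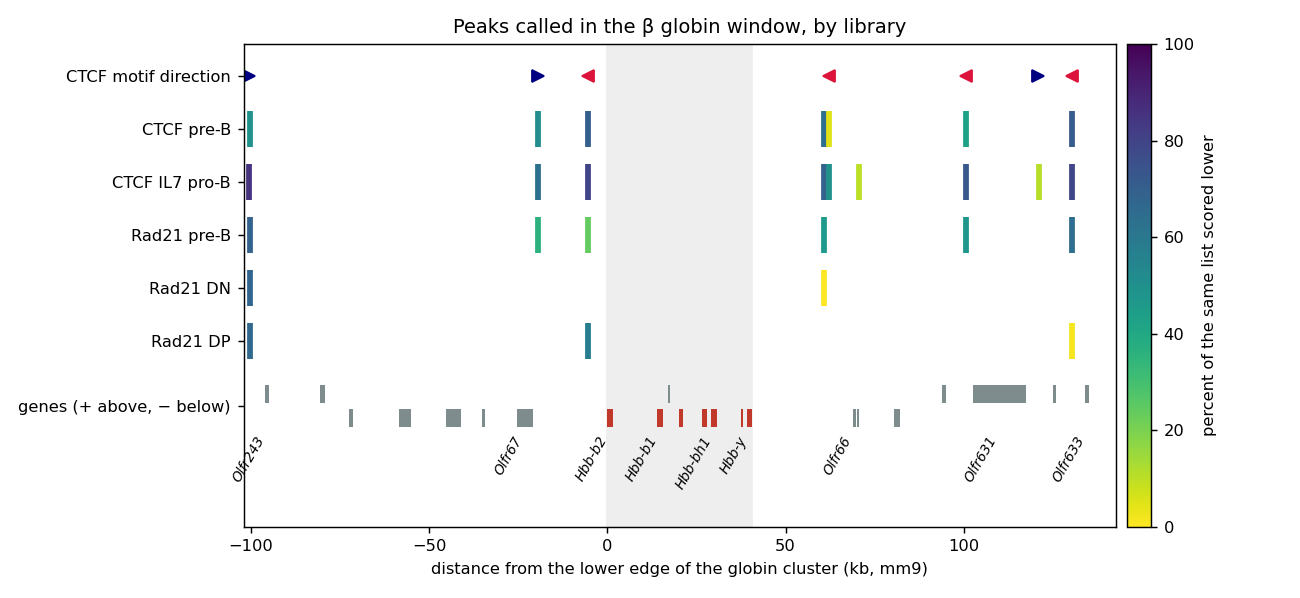
Peaks in the β globin window by library (rows), against distance in kb from the lower edge of the cluster (grey band), coloured by the percent of the same list that scored lower, with arrowheads for the direction of the CTCF matrix match in each CTCF peak and genes as blocks (red for globin genes and globin pseudogenes). The band holds no peak, and the nearest peaks lie 5.05 kb below and 19.7 kb above it.

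The Hbb-b2 border site (chr7:110955321-110955988) was called with CTCF in both B-lineage libraries and with Rad21 in pre-B and DP cells, but not in the DN list. Scores are given as the percent of peaks in the same list with a lower score, because the score grows with depth. The percent also depends on the length of the list, so a lower percent in the short DN list need not mean a weaker peak, and percents are not compared between lists. The site stood above 70.1% of pre-B CTCF peaks, 80% of IL7 pro-B CTCF peaks, 24.2% of pre-B Rad21 peaks and 58% of DP Rad21 peaks. The CTCF peaks were thus in the upper part of their lists, and the pre-B Rad21 peak in the lower part of its own. Its motif, the Hbb-b2 border sequence above, lay 5.44 kb from the cluster on the plus strand and pointed away from the globin genes. All 32-base words of the site occurred at 1 place in the genome, counting exact copies only.

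On the other side, the nearest site above Hbb-y (chr7:111021412-111022126) was called with CTCF in both libraries and with Rad21 in pre-B and DN cells, but not in DP cells. It stood above 63.9% of pre-B CTCF peaks, 69% of IL7 pro-B CTCF peaks and 45.6% of pre-B Rad21 peaks. The DN peak had a score of 86.68, above 0.186% of its list, whose lowest score was 86.45, so the DN call was close to the threshold. The CTCF peak had no match to the consensus with 2 mismatches, nor with 3, the fewest mismatches being 5, and it did not pass the matrix made from other CTCF peaks. The part common to all 4 peaks, chr7:111021669-111021832 (164 bp, 32.9% G or C, plus strand), is shown because CTCF was called there without these letters.
Nearest site above Hbb-y: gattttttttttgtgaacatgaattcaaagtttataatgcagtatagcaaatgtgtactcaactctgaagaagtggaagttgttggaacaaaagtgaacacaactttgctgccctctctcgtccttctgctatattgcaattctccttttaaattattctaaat

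The next site outward, 21.2 kb above Hbb-y, was called in both CTCF lists and in no Rad21 list, and did carry a match (the second site beyond Hbb-y), which pointed toward the cluster. It ranked above 4.69% of pre-B CTCF peaks and 49.9% of IL7 pro-B CTCF peaks. The neighbouring pair thus differed in these calls, the site with Rad21 having no match to the motifs searched and the site with a match having no Rad21 peak. The latter was low in the pre-B CTCF list, so its missing Rad21 call may reflect the threshold, which was not tested.

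Further out on the lower side, the site 19.2 kb below Hbb-b2 and 790 bp from Olfr67, an olfactory receptor gene, was called with CTCF in both libraries and with Rad21 in pre-B cells only. It ranked above 51.2%, 63.6% and 36.2% of those lists, in the order pre-B CTCF, IL7 pro-B CTCF and pre-B Rad21. Its match had 1 mismatch and pointed toward the cluster. The nearest site called in all 5 libraries lay 99.9 kb below the cluster, near Olfr243, across the window's edge. Its IL7 pro-B CTCF and DN Rad21 peaks ended outside the window and are not in the counts above. It ranked above 49.8% of pre-B CTCF, 84.9% of IL7 pro-B CTCF, 69% of pre-B Rad21, 67.4% of DN Rad21 and 66.6% of DP Rad21 peaks. No site called in all 5 libraries was found in the window on the Hbb-y side.

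The 4 remaining sites of the β window lay above Hbb-y. Those at 29.8 kb (near Olfr66) and 80.1 kb were called only with CTCF in IL7 pro-B cells, above 9.77% and 10.8% of that list. The site at 59.6 kb, near Olfr631, had CTCF in both libraries and Rad21 in pre-B cells, and outranked 42.9%, 72.8% and 47.3% of these lists. The site at 89.3 kb, near Olfr633, was called in the same 3 lists, above 71.1%, 79% and 64.5%, and also in the DP list, above 1.26%. Pre-B Rad21 thus had 6 sites around the β genes, of which DP cells shared 3 (50%, against 67.3% of the whole list) and DN cells 2 (33.3%, against 29.8%).

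The α window was more densely bound and, unlike the β cluster, its cluster held a site. The window count was 18 peaks for pre-B CTCF, 22 for IL7 pro-B CTCF, 8 for pre-B Rad21, 4 for DN Rad21 and 11 for DP Rad21. In peaks per megabase these were 81.5, 99.6, 36.2, 18.1 and 49.8, against 16, 26.9, 11.6, 3.68 and 13.9 over chromosomes 1 to 19 and X. Every list was thus denser here than over the genome, and denser than in the β window. The 12 annotated genes of the α window were unlike the olfactory receptor genes around the β cluster, and included the widely expressed genes Snrnp25, Rhbdf1, Mpg and Nprl3.

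**Figure D2:**
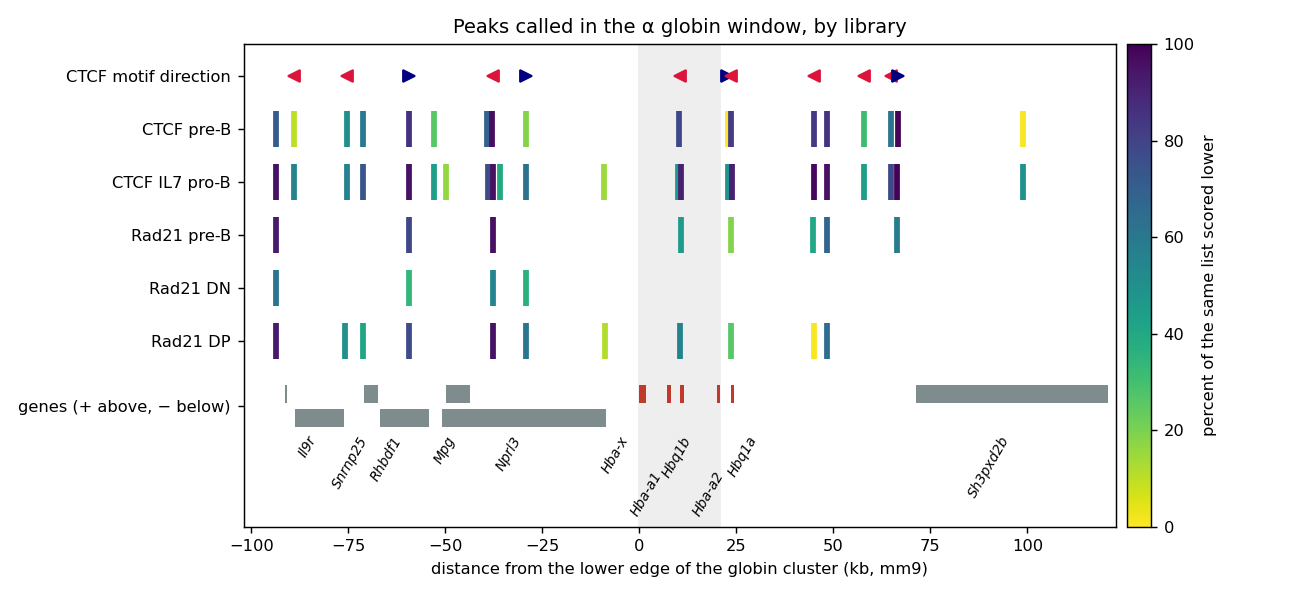
Peaks in the α globin window by library (rows), against distance in kb from the lower edge of the cluster (grey band), drawn as in the map of the β window, with globin and theta globin genes in red. A single site lies inside the band, and all 4 DN peaks, from the shortest list, lie on the Nprl3 side, at 28.8 to 93.3 kb below it.

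The site inside the α cluster (chr11:32185822-32187587) covered the start of Hbq1b, a theta globin gene between Hba-a1 and Hba-a2, and no peak lay over Hba-x, Hba-a1 or Hba-a2 themselves. A matching site (chr11:32198922-32200607) covered the start of Hbq1a, the other theta gene, 1.62 kb above Hba-a2. Both were called with CTCF in both libraries and with Rad21 in pre-B and DP cells, and neither was in the DN list. The Hbq1b site stood above 78.6% of pre-B CTCF, 91.3% of IL7 pro-B CTCF, 45.6% of pre-B Rad21 and 55.3% of DP Rad21 peaks. The Hbq1a site stood above 82.5%, 91.3%, 18.7% and 25.8% in the same order. These are the highest peaks of each site. The Hbq1a site held further CTCF peaks, above 0.234% (pre-B) and 48.6% (IL7 pro-B) of their lists, and the Hbq1b site another IL7 pro-B CTCF peak, above 46.1%. CTCF scores were close between the copies (1789.8 at Hbq1b and 1790.7 at Hbq1a in IL7 pro-B cells, 811 and 914 in pre-B cells). Rad21 scores were higher at Hbq1b in both cell types, at 162 against 84.4 in pre-B cells and 169 against 88 in DP cells.

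The theta copies cannot be read as separate sites without a caution. Around the CTCF match the copies were identical over 105 bases, which end just before the annotated gene starts, and the capitals in the sequence above end 20 bp before Hbq1b and 19 bp before Hbq1a. Of the 32-base words of the Hbq1b site 49.7% occurred at 2 or 3 places in the genome, and of the Hbq1a site 50.8% did. Reads with as many as 3 places were kept by the authors at every place, so a read from the repeated stretches of either copy counted at both, while 49.7% of the Hbq1b words and 44.5% of the Hbq1a words occurred at 1 place. The same holds for the adult genes, with 96.5% of words repeated at 2 or 3 places in Hba-a1, 95.9% in Hba-a2, 74.4% in Hbb-b2 and 70% in Hbb-b1. Words of Hbb-bh1 and Hbb-y were all at 1 place, and 95.8% of those of Hba-x were.

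On the Nprl3 side, the nearest site lay 8.55 kb below Hba-x at the start of Nprl3, called with CTCF in IL7 pro-B cells and with Rad21 in DP cells, low in both lists (ahead of 15.2% and 11.7% of peaks). The next lay 28.8 kb below, in an intron of Nprl3, and was called in 4 lists but not with Rad21 in pre-B cells. It ranked above 18.5% of pre-B CTCF, 63.1% of IL7 pro-B CTCF, 36.2% of DN Rad21 and 60.7% of DP Rad21 peaks. This was 1 of the 18 merged Rad21 sites of both windows (5.56%, exact 95% interval 0.141 to 27.3) with Rad21 in both thymocyte lists and none in pre-B cells, against 0.94% of all merged Rad21 sites. Its match pointed toward the α genes.

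The nearest site called in all 5 libraries, 37.2 kb below Hba-x within Nprl3 (chr11:32138008-32139153), carried the highest-ranked Rad21 peaks of the window in pre-B and DP cells. It stood above 96.3% of pre-B CTCF, 95.8% of IL7 pro-B CTCF, 95.9% of pre-B Rad21, 95.4% of DP Rad21 and 54.5% of DN Rad21 peaks. Its match lay in an intron, had 2 mismatches and pointed away from the α genes. The 2 other sites called in all 5 libraries were at 59 kb, in an exon of Rhbdf1, and at 93.3 kb, beyond Il9r, the interleukin 9 receptor gene. The Rhbdf1 site ranked above 85.8%, 95.7%, 78.9%, 34.2% and 77% of the lists, in the order pre-B CTCF, IL7 pro-B CTCF, pre-B Rad21, DN Rad21 and DP Rad21. The Il9r site ranked above 71.2%, 95.6%, 93.1%, 60.8% and 93% in that order, the 60.8% being the highest DN rank of the window. No match to the consensus or the matrix was found in its pre-B CTCF peak.

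On the Sh3pxd2b side no DN Rad21 peak was called within the window, the nearest lying 153 kb above Hba-a2. The DN list was the shortest. With each list limited to its 9701 best peaks, no pre-B or DP Rad21 peak remained on this side of the window either. The site 23.6 kb above the cluster was called in both CTCF lists and with Rad21 in pre-B and DP cells, where it outranked 83.1%, 98%, 40% and 1.03% of the lists. The site at 27.1 kb was called in the same lists, above 85.9%, 95.5%, 67.4% and 64.5%. The site at 45.1 kb, outside genes below Sh3pxd2b, held the highest-ranked CTCF peaks of both windows. It stood above 98.9% of pre-B CTCF peaks, at rank 445, and above 99.3% of IL7 pro-B CTCF peaks, where its score of 3100 was shared by 436 peaks. Rad21 was called there in pre-B cells only, above 58.9% of that list.

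**Figure D3:**
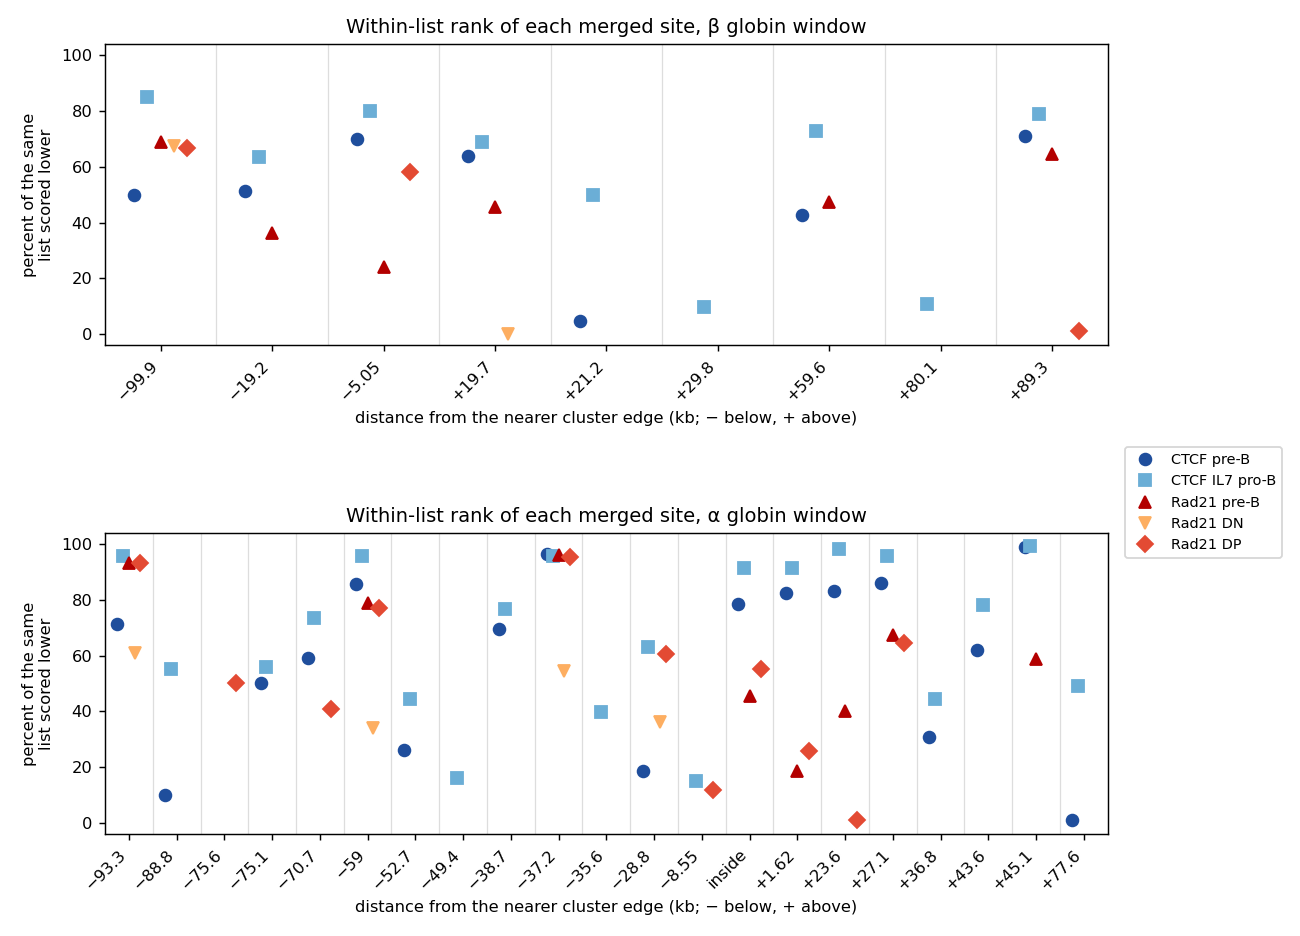
Within-list rank (percent of the same list scored lower) of each merged site, with the β window above and the α window below, sites in order of position and labelled by distance from the nearer cluster edge in kb. Symbols mark the 5 libraries, the highest peak being shown where a site held more than 1. Ranks of both CTCF lists and of pre-B and DP Rad21 exceed 95 at the Nprl3 site 37.2 kb below the α cluster. The lists differ in length, so symbols of different libraries are not on a common scale.

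The other sites of the α window added mostly CTCF. Counting the whole window, 9 of 21 sites had CTCF and no Rad21 peak, against 3 of 9 in the β window. Over both windows this was 12 of 30 sites (40%), and over all merged sites of the 5 lists it was 44.8%. Of the 12 sites, 4 were called only in IL7 pro-B cells, for which there was no Rad21 list. Rad21 without CTCF was seen at 1 of 30 sites, the DP peak over the start of Il9r (above 50.1% of its list), against 15.1% of merged sites in all, so 1 site decides that value. CTCF was mapped in B-lineage cells only, so this DP peak lacks a B-lineage CTCF call, and CTCF of DP cells is not among the lists. Sites called in all 5 libraries were 4 of 30 (13.3%), against 10.3% in all. Of those 4 sites, 3 lay on the Nprl3 side of the α cluster and 1 below the β cluster.

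Of the 7 globin genes chosen, the adult α pair was nearest to a peak in every list but DN Rad21. The theta genes, which were not among the 7, were overlapped by peaks of those lists. Hba-a1 lay 1.36, 1.4, 2.29, 35.9 and 2.09 kb from the nearest peak of pre-B CTCF, IL7 pro-B CTCF, pre-B Rad21, DN Rad21 and DP Rad21. For Hba-a2 the distances in this order were 1.7, 1.62, 2.46, 48.9 and 2.44 kb, and for the embryonic Hba-x they were 7.71, 7.75, 8.64, 28.8 and 8.44 kb. Hbb-b2, at the end of its cluster, lay 5.05, 5.17, 5.25, 59.2 and 5.28 kb away. The other β genes were farther from CTCF, with Hbb-b1 at 19.1, 19.2, 19.3, 45.1 and 19.3 kb and Hbb-y at 19.9, 19.9, 19.7, 19.9 and 44.5 kb. Of the chosen β genes Hbb-bh1 lay farthest from CTCF, at 30, 30, 29.7, 30 and 34.4 kb. Hbb-bh2, a gene of the cluster that was not chosen, lay farther from CTCF, at 31.7 kb (pre-B) and 31.8 kb (IL7 pro-B). The order differed in the thymocyte lists. In DN cells Hbb-y was nearest to a Rad21 peak, at the site close to that list's threshold, and Hbb-b2 farthest, and in DP cells Hbb-y was farthest.

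Sharing between the lists was set beside the share of the whole list, with exact Clopper-Pearson 95% intervals that cover counting error only. Here and in the motif shares below, the intervals treat peaks as independent, although the theta copies share reads and count separately. Of the pre-B CTCF peaks of both windows 14 of 25 (56%, 34.9 to 75.6) coincided with pre-B Rad21, against 63.5% of the list. The share was 6 of 7 (85.7%, 42.1 to 99.6) in the β window and 8 of 18 (44.4%, 21.5 to 69.2) in the α window, and the intervals overlapped. Conversely, all 14 pre-B Rad21 peaks lay on pre-B CTCF peaks (100%, 76.8 to 100), against 88.1%. Rad21 of DP cells overlapped 12 of the 25 pre-B CTCF peaks (48%, 27.8 to 68.7), against 52%, and Rad21 of DN cells 6 of 25 (24%, 9.36 to 45.1), against 22%.

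All 25 pre-B CTCF peaks were also called in IL7 pro-B cells (100%, 86.3 to 100), against 96% of the list. In the other direction, 25 of 30 IL7 pro-B CTCF peaks overlapped a pre-B CTCF peak (83.3%, 65.3 to 94.4), against 58.6%, a background below the interval. Between cell types, 10 of 14 pre-B Rad21 peaks overlapped a DP Rad21 peak (71.4%, 41.9 to 91.6), against 67.3%, with 3 of 6 in the β window and 7 of 8 in the α window. Of the 18 merged sites with Rad21, 4 were called in all 3 Rad21 libraries (22.2%, 6.41 to 47.6), against 18.7% of all such sites. Another 6 were shared by pre-B and DP cells alone (33.3%, 13.3 to 59, against 25.1%), 3 were in pre-B cells alone (16.7%, 3.58 to 41.4, against 20.6%) and 3 in DP cells alone (16.7%, 3.58 to 41.4, against 33.6%). The DN list was the shortest, and with every Rad21 list limited to its 9701 best peaks the α window held 3 pre-B, 4 DN and 3 DP peaks and the β window 1, 1 and 0.

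The remaining overlaps were counted the same way. Of the 30 IL7 pro-B CTCF peaks, 13 met pre-B Rad21 (43.3%, against 39.8% of the list), 13 met DP Rad21 (43.3%, against 35.8%) and 5 met DN Rad21 (16.7%, against 13.5%). All 14 pre-B Rad21 peaks met IL7 pro-B CTCF (against 90.4%), and 5 met DN Rad21 (35.7%, against 29.8%). DP Rad21, which was called in T-lineage cells, met CTCF of pre-B cells at 12 of 14 peaks (85.7%, 57.2 to 98.2, against 60.3%) and CTCF of IL7 pro-B cells at 13 of 14 (92.9%, 66.1 to 99.8, against 67.9%). It met pre-B Rad21 at 10 of 14 (71.4%, against 56.3%) and DN Rad21 at 5 of 14 (35.7%, against 24.9%). The 5 DN peaks all met CTCF of both B-lineage lists (against 96.1% in pre-B and 98.3% in IL7 pro-B cells). Of these 5, 4 met pre-B Rad21 (against 93.9%) and 4 met DP Rad21 (against 94.5%), the exceptions being the Nprl3 intron site and the site nearest Hbb-y. In each of these overlaps the share of the whole list lay within the exact interval of the window peaks.

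**Figure D4:**
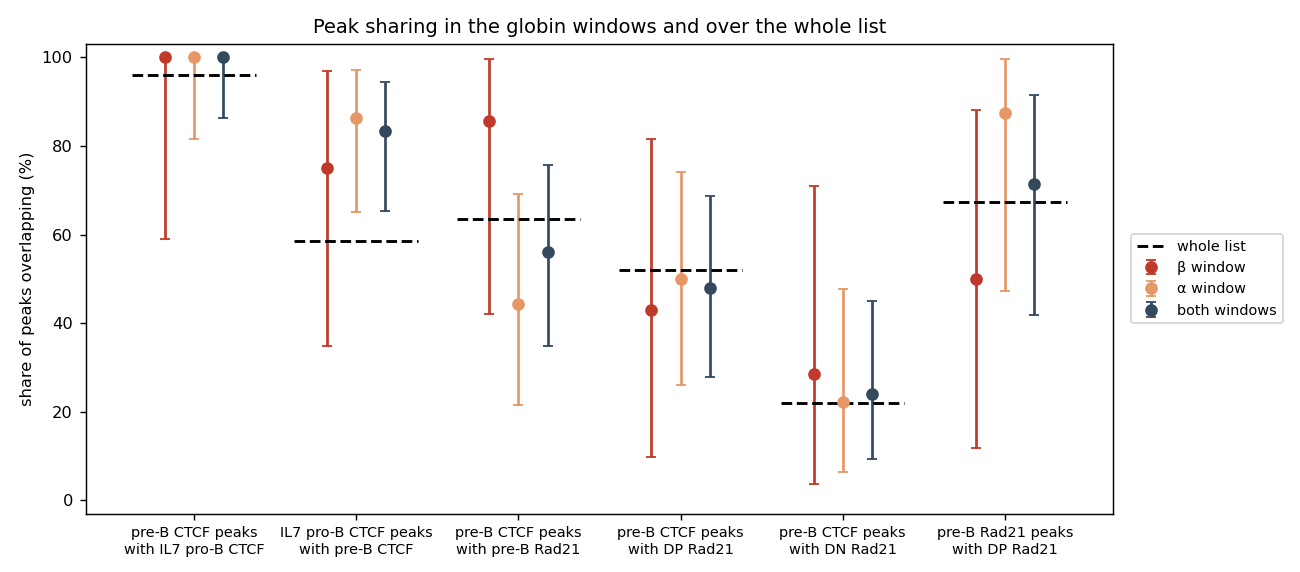
Share of peaks that overlapped a peak of a second list by at least 1 bp, in the β window, the α window and both, with exact 95% intervals as bars and the share of the whole list as a dashed line. The dashed line lies within each interval drawn except for IL7 pro-B CTCF peaks found in pre-B cells, where 58.6% lies below the intervals of the α window and of both windows, at 86.4% and 83.3%.

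The HOMER de novo consensus was found with up to 2 mismatches, on either strand, in 13 of the 25 pre-B CTCF peaks (52%, 31.3 to 72.2), against 48.3% of the list and 4% of the stretches 2000 bp away from these peaks. The letters CGCCCCCTGGTGGC, a second CTCF consensus of the study named EMBL_M1 that overlaps the first, were found with up to 3 mismatches in 44% of peaks, against 38.1%. A matrix of 20 bases made from 6771 pre-B CTCF peaks outside the windows that held the HOMER consensus with up to 1 mismatch was passed by 72%, against 61.3%. Over the 30 CTCF peaks searched, 1 or more for each CTCF site, 14 held the consensus with up to 2 mismatches and all 14 passed the matrix, while 11 passed neither. Since the matrix was built from consensus matches, the measures are not independent. The consensus had a single best strand in 13 of the 14, and in the peak beyond Hbq1a it matched both strands equally well. No globin gene of the 7 had the consensus in its promoter, taken as 250 bases before to 50 after the gene start. The theta promoters both had it, with 1 mismatch, against 8.41% of all protein-coding promoters.

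Directions were read from the best matrix match of each peak. Below the β cluster 2 matches pointed toward the genes and 1, at the Hbb-b2 border, away. Above it 3 pointed toward the genes and 1, in a peak of IL7 pro-B cells only, away. Below the α cluster 2 pointed toward the genes and 3 away, and above it 4 toward and 2 away, counting the matches near Hbq1a. The best theta matches, just before the gene starts, pointed to lower coordinates, toward Nprl3. They thus faced the match in the Nprl3 intron 28.8 kb below Hba-x. The theta sites were not of 1 direction only. The Hbq1b peak also passed the matrix on the minus strand, and another CTCF peak of the Hbq1a site had a minus-strand match pointing to higher coordinates. The Nprl3 site called in all 5 libraries pointed away from the α genes, as did the highest-ranked CTCF site near Sh3pxd2b. The nearest bordering matches of the β cluster were on the same strand, those of Hbb-b2 and of the second site beyond Hbb-y, and did not face each other. The first facing pair outward was formed by the Olfr67 side and the second site beyond Hbb-y.

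Genes that serve the globin genes in red cells were mostly not free of CTCF and Rad21 in these lymphocyte precursors. Whether these cells express those genes was not measured. Of 27 genes on a list of erythroid transcription factors, haem enzymes and red cell membrane or receptor genes, 26 were matched by symbol in the annotation. A peak within 5 kb was found for 21 with pre-B CTCF (80.8%, 60.6 to 93.4), against 61.9% of protein-coding genes, and for 22 with pre-B Rad21 (84.6%, 65.1 to 95.6), against 52.5%. The counts were 23 for IL7 pro-B CTCF, 10 for DN Rad21 and 21 for DP Rad21, against 72.5%, 24% and 56% of protein-coding genes. By the same measure 2 of the 7 globin genes, Hba-a1 and Hba-a2, had a peak in each list but DN Rad21, where none did.

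Peaks of all 5 lists lay near 10 of the 26 genes, against 23.1% of protein-coding genes. Among them were 7 of the 12 transcription factor genes, Klf1, Nfe2, Lmo2, Gfi1b, Zfpm1, Bcl11a and Sox6. Klf1 is the activator of adult β globin, and Bcl11a and Sox6 take part in silencing embryonic and fetal globin genes. The others were Alad of haem synthesis, Epor, the erythropoietin receptor, and Ank1, a membrane skeleton gene. At 3 genes, against 24.1% of protein-coding genes, no list had a peak nearby. These were Gata1, the master regulator of red cell genes, Alas2, the red cell enzyme that starts haem synthesis, and Slc4a1, the red cell anion exchanger. The genes of the list differ in length, and a longer gene has more room for a peak.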

How the data were processed

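The 5 peak lists were those deposited by the authors, who removed duplicate reads, mapped the rest to mm9 with Bowtie (reads with up to 3 places kept, all places reported) and called peaks against input with MACS at a false discovery rate of at most 1%. The submitters' processing notes name Bowtie 0.12.9 and MACS 1.4.2. Each deposited peak carries a score that MACS derives from its p-value. Input libraries had no peak list here. Peaks were written 1-based and annotated with GENCODE vM1 on mm9. Merging, overlap (1 bp), within-list rank, motif search and counts of 32-base words over the genome were computed in Python 3.11.15 with numpy 2.4.6, scipy 1.17.1 and pysam 0.24.0, after the code had been tested on simulated peaks. Motif letters came from the study's supplement. With 1 library per condition no test was run, and shares carry exact intervals. Depth is unknown, so scores were compared within a list only, as ranks or between peaks of 1 list, and peak counts of different lists are not corrected for depth. The members and lists were chosen with earlier results of these data known. Named were sites inside a cluster, the 2 nearest on each side, the nearest called in all 5 libraries or in both pre-B lists, and the highest-ranked of each list, with other sites of a window of up to 15 sites by place. Genes at or next to named sites and erythroid genes with a peak in all or none of the lists were named too, and 1 gene of that list is not reported here. Alternatives were lists of equal length (9701 peaks), scores below 100 left out, peak midpoints, flanks of 50 and 200 kb, overlap of 50%, other motif settings, and gene distances of 0 and 20 kb.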

Additional observations from a re-analysis of the deposited data

How the results depend on the processing

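With lists cut to the 9701 best peaks each, the β window held 0 peaks for pre-B CTCF, 0 for IL7 pro-B CTCF, 1 for pre-B Rad21 and 0 for DP Rad21, and the α window held 7, 8, 3 and 3 for the same lists. DN Rad21, whose list is that length, stayed at 1 and 4. The α cluster then held 1 peak for IL7 pro-B CTCF, 0 for pre-B Rad21 and 0 for DP Rad21. Of pre-B CTCF peaks 28.6% then had pre-B Rad21, of pre-B Rad21 peaks 50% had CTCF, and 50% of Rad21 sites were in all 3 lists. These lists keep fewer peaks by construction. With flanks of 50 kb the β counts were 4, 5, 3 and 1 for pre-B CTCF, IL7 pro-B CTCF, pre-B Rad21 and DP Rad21, and the α counts were 11 for pre-B CTCF, 2 for DN Rad21 and 7 for DP Rad21. With flanks of 200 kb the β count was 2 for DN Rad21, and the α counts were 29, 37, 17, 9 and 21 for the 5 lists in the order pre-B CTCF, IL7 pro-B CTCF, pre-B Rad21, DN Rad21 and DP Rad21. Without scores below 100 the β count for DN Rad21 was 0, and the median percent of the list below the peaks of both windows moved from 62.1 to 63.6 for pre-B CTCF, from 66.3 to 64.3 for IL7 pro-B CTCF, from 53.1 to 48.2 for pre-B Rad21 and from 56.6 to 44.5 for DP Rad21, below the middle of its list, the lists being shorter from below. The consensus was found in 16% of the windows' pre-B CTCF peaks with 1 mismatch, against 16.1% of the whole list. With 3 mismatches it was found in 96%, against 91.2% of the whole list, and neighbouring stretches stood at 48%. The β cluster had 0 peaks in every list under the alternatives run. For this count they could only remove peaks or tighten the rule, so 0 could not rise. No paired analysis was possible because each condition was 1 library and no test was run. Depth was unknown, and 1 library per condition gives no error between samples.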
